A study of Homo sapiens with 18 samples.

Results

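The genes described here are the 5 subunits of the MuvB core (LIN9, LIN37, LIN52, LIN54 and RBBP4) and the activators B-Myb (gene MYBL2) and FOXM1. They were chosen by name, with earlier results of these data known, and make up 7 of the 60656 gene rows of the count table, under the identifiers ENSG00000183814.15 (LIN9), ENSG00000267796.8 (LIN37), ENSG00000205659.11 (LIN52), ENSG00000189308.11 (LIN54), ENSG00000162521.19 (RBBP4), ENSG00000101057.16 (MYBL2) and ENSG00000111206.13 (FOXM1). Messenger RNA was sequenced from the 3′ end in CAMA-1 and ZR-75-1, established cell lines of oestrogen receptor-positive breast cancer, in a study of how the retinoblastoma protein (Rb) acts on transcription when CDK4 and CDK6 are inhibited. Each line was treated for 5 days with DMSO, abemaciclib at 500 nM or palbociclib at 500 nM, giving 6 groups of 3 libraries, 18 in all. The study describes the replicates as independent biological replicates, all samples of a group come from the same line, and no group carries a genetic change made for the experiment. Both inhibitor groups of a line were compared with the same 3 DMSO libraries, so that their values share those controls. These are bulk RNA values, in which fewer cells expressing a gene and less RNA per cell cannot be told apart.

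The MuvB core switches partners over the cell cycle. In quiescent or arrested cells it joins a pocket protein (p130 or p107), E2F4 or E2F5 and a DP subunit to form DREAM, a complex that represses cell cycle genes. In proliferating cells it leaves the pocket proteins, joins B-Myb in S phase and FOXM1 in G2, and activates the genes of mitosis. LIN54 contacts DNA at the cell cycle genes homology region (CHR), an element of late cell cycle promoters, whereas E2F proteins bind E2F sites, which are common in G1/S promoters. CDK4/6 inhibitors keep Rb and its relatives in the unphosphorylated state that binds E2F proteins.

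To show which of these elements the members themselves carry, promoter windows from RefSeq (GRCh38.p14) running from 250 bases before to 50 bases after a transcription start were searched on both strands. The letters searched were TTTGAA for the CHR, GGCGGGA for the E2F core and CCAAT for the CCAAT box, chosen after the sequences had been read. Capitals in the following 30-base windows mark the E2F core or its reverse complement, in the orientation of the gene.
MYBL2: ccgacgcgcttGGCGGGAgatagaaaagtg
LIN9: cagccagccgcGGCGGGAgcagcgcagcgc
LIN52: gaacctcgtttTCCCGCCgacggttggcca
LIN54: gttggcggggcGGCGGGAggcttccccgga
RBBP4: ttccccgcccaTCCCGCCattaggagcgct
They lie at chr20:43667064-43667093 on the plus strand for MYBL2, chr1:226309250-226309279 on the minus strand for LIN9, chr14:74084922-74084951 on the plus strand for LIN52, chr4:83010887-83010916 on the minus strand for LIN54 and chr1:32651121-32651150 on the plus strand for RBBP4. In the next set, capitals mark the CHR, shown in a pair of MuvB subunits and, for comparison, in PLK1 and CDC20 of the late cell cycle list described further on.
LIN9: cggcgggcagccTTTGAAaaagcggcgcgg
LIN54: ggcccttgtgcgTTTGAAggttggcggggc
PLK1: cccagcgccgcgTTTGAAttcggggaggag
CDC20: cgacggttggatTTTGAAggagccaatagg
These windows are chr1:226309150-226309179 (LIN9, minus strand), chr4:83010906-83010935 (LIN54, minus strand), chr16:23678848-23678877 (PLK1, plus strand) and chr1:43358904-43358933 (CDC20, plus strand).

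The E2F letters were present in at least 1 window of 6 of the 6 members with an entry in the table, against 18.0% of all 27305 genes with one. FOXM1 has no entry. The CHR letters were found in 3 of those 6 members (LIN9, LIN37 and LIN54), against 18.2% of all genes, and the CCAAT box in 3 (LIN37, LIN52 and RBBP4), against 39.7%. Counted by window rather than by gene, since some genes have several, 8 of the 11 windows of the members held the E2F letters and 4 held the CHR letters, against 15.3% and 15.2% of all 34943 windows. In MYBL2, whose product B-Myb drives late cell cycle genes, the E2F letters began 39 bases before the start, and neither the CHR nor the CCAAT letters occurred in its window. A match is a description of the letters and not a measured binding site.

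The libraries held from 2308442 to 4146549 counts, with 14881 to 16563 genes detected per library. Levels are given as CPM, that is, counts relative to a library total scaled by TMM, and 3 counts correspond to 0.723 to 1.30 CPM before that scaling. The luminal epithelial markers, ESR1 and EPCAM among them, held from 120 to 11700 counts in every CAMA-1 library and from 375 to 8384 in every ZR-75-1 library, whereas the leukocyte marker PTPRC and the endothelial marker PECAM1 held at most 3. The stromal collagen gene COL1A1 held 26 to 108 counts and COL3A1 0 to 24, the latter at 0 in all ZR-75-1 libraries. In CAMA-1, COL3A1 was higher than in DMSO by 2.24 on the log2 scale with abemaciclib (edgeR, adjusted p = 0.000299) and by 2.12 with palbociclib (adjusted p = 0.00059). COL1A1 changed there by -0.58 with abemaciclib (adjusted p = 0.047) and by -0.53 with palbociclib (adjusted p = 0.0675, not called). In ZR-75-1, COL1A1 was not called with either inhibitor and COL3A1 was not tested. The part of these marker differences in the changes of the members was not tested. Mitochondrially encoded genes took 14.8 to 16.6% of the counts in the CAMA-1 DMSO libraries and 22.9 to 26.1% in the treated libraries of that line, while the 3 ZR-75-1 groups overlapped between 17.3 and 22.6%.

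MYBL2 and FOXM1 RNA fell with both inhibitors in both lines. In CAMA-1, LIN52, LIN54 and RBBP4 also fell with each inhibitor, to between 49.9 and 79.3% of the DMSO mean. The LIN54 call with palbociclib was lost in 10 of 14 alternative analyses. In ZR-75-1 no core subunit passed the test. When the responses of the lines were compared directly, LIN52 was the only core subunit called. Its call for abemaciclib was lost in 9 of 19 alternatives. With palbociclib in ZR-75-1, MYBL2 and FOXM1 fell less than with abemaciclib in that line and less than with palbociclib in CAMA-1. LIN37 could not be measured. A gene is said to be called, to rise or to fall where the adjusted p of edgeR's quasi-likelihood test (Benjamini-Hochberg over all genes tested) was under 0.05, and fold changes are on the log2 scale of the fitted model, with 3 libraries in each group.

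With abemaciclib in CAMA-1, 5 of the 6 members tested were called lower, where 20.1% of the 11053 genes tested were called lower and 20.3% higher. With palbociclib in the same line 5 of 6 were called lower, against 18.7% of all genes lower and 18.4% higher. In ZR-75-1, 2 of 6 members, MYBL2 and FOXM1, were called lower with abemaciclib, where 18.3% of 11017 genes were lower and 17.9% higher. Palbociclib in ZR-75-1 again lowered 2 of 6, the same pair, against 13.4% of all genes lower and 14.5% higher.

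LIN9 is a scaffold subunit of the core and gave few counts, from 16 to 38 per library. In CAMA-1 LIN9 stood at 5.09, 11.0 and 8.47 CPM in the DMSO libraries, 7.39, 9.41 and 5.60 with abemaciclib and 4.08, 5.67 and 5.76 with palbociclib. The ZR-75-1 values were 8.81, 11.6 and 13.1 CPM in the DMSO libraries, 10.6, 10.7 and 9.44 with abemaciclib and 5.03, 11.1 and 9.39 with palbociclib. The ranges of neighbouring groups overlapped throughout, from the highest mean of 11.2 ± 2.17 CPM (SD, n = 3) in ZR-75-1 DMSO to the lowest of 5.17 ± 0.948 CPM (SD, n = 3) in CAMA-1 palbociclib. No LIN9 difference from DMSO was called by edgeR's quasi-likelihood test, with log2 fold changes under abemaciclib of -0.19 (adjusted p = 0.689) for CAMA-1 and -0.13 (adjusted p = 0.776) for ZR-75-1, and under palbociclib of -0.71 (adjusted p = 0.0992) and -0.41 (adjusted p = 0.321). The widest of these intervals, -1.39 to -0.023 for palbociclib in CAMA-1, spans both a very small and a large fall, so that a moderate change of LIN9 was not detectable at this depth. Without the first DMSO library of CAMA-1, LIN9 with palbociclib was called lower at -0.95 (adjusted p = 0.0356).

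LIN52 is the small subunit whose phosphorylation by DYRK1A favours assembly of DREAM. In CAMA-1 its level was 21.3, 25.7 and 19.9 CPM in the DMSO libraries, 13.5, 12.0 and 15.9 with abemaciclib and 11.8, 10.5 and 11.2 with palbociclib. All 6 treated libraries lay below all 3 DMSO libraries. The fall was -0.71 ± 0.21 (SE, adjusted p = 0.00509) with abemaciclib and -1.02 ± 0.21 (SE, adjusted p = 0.000111) with palbociclib, to 61.7 and 49.9% of the DMSO mean. In ZR-75-1 the level was 10.8, 10.4 and 14.1 CPM in the DMSO libraries, 15.2, 13.2 and 11.8 with abemaciclib and 13.1, 12.8 and 9.98 with palbociclib, and the 3 groups overlapped. LIN52 in ZR-75-1 gave 0.19 (adjusted p = 0.607) with abemaciclib and 0.027 (adjusted p = 0.956) with palbociclib, with 95% intervals of -0.32 to 0.70 and -0.48 to 0.53. The only group that stood apart was CAMA-1 DMSO, at 22.3 ± 3.01 CPM (SD, n = 3), where the other 5 means ran from 11.1 to 13.8 CPM.

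LIN54 is the DNA-binding subunit. Its level in CAMA-1 was 20.4, 12.7 and 18.1 CPM in the DMSO libraries, 12.7, 10.7 and 8.71 with abemaciclib and 11.0, 9.64 and 14.9 with palbociclib. The highest abemaciclib library lay just under the lowest DMSO library, and the palbociclib libraries overlapped the DMSO libraries. LIN54 fell by 0.70 with abemaciclib (adjusted p = 0.0182) and by 0.58 with palbociclib (adjusted p = 0.0499), the latter just under the threshold. The palbociclib call was lost in 10 of 14 alternatives, including DESeq2 and 4 of the 6 fits with 1 library omitted (DMSO replicates 1 and 3, palbociclib replicates 1 and 2), with adjusted p up to 0.206. The abemaciclib call was lost in 4 of 14, namely DESeq2 and the fits without DMSO replicate 1 or 3 or abemaciclib replicate 3, with adjusted p up to 0.0992. In ZR-75-1 LIN54 stood at 16.3, 19.6 and 17.6 CPM in the DMSO libraries, 16.2, 12.8 and 16.5 with abemaciclib and 12.0, 20.9 and 17.0 with palbociclib. Those groups overlapped, and the log2 fold changes of -0.24 (adjusted p = 0.442) and -0.11 (adjusted p = 0.753) were not called.

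RBBP4 is a histone-binding WD40 protein that MuvB shares with other chromatin complexes, so its RNA serves more than the core. In CAMA-1 it stood at 92.0, 99.4 and 98.2 CPM in the DMSO libraries, 83.4, 65.4 and 77.2 with abemaciclib and 80.6, 74.8 and 74.2 with palbociclib, and the highest treated library was lower than the lowest DMSO library. The fall was small, -0.38 ± 0.10 (SE, adjusted p = 0.00247) with abemaciclib and -0.36 ± 0.10 (SE, adjusted p = 0.00336) with palbociclib, to 78.0 and 79.3% of the DMSO mean. RBBP4 values in ZR-75-1 were 58.4, 68.5 and 54.4 CPM in the DMSO libraries, 59.2, 56.8 and 48.4 with abemaciclib and 60.7, 62.8 and 63.4 with palbociclib. They overlapped between DMSO and either inhibitor, with changes of -0.15 (adjusted p = 0.379) and 0.036 (adjusted p = 0.861) and intervals of -0.39 to 0.10 and -0.20 to 0.28. Of the 4 core subunits tested in ZR-75-1, 0 were called with either inhibitor by edgeR, 0 by DESeq2, and 0 had an unadjusted p under 0.05. In CAMA-1, LIN52 and RBBP4 gave log2 fold changes of -0.70 and -0.37 under abemaciclib with mitochondrially encoded genes left out of totals and tests. Under palbociclib they gave -1.02 and -0.36. The mitochondrial share was higher in the treated libraries of that line, and its part in the falls was not tested. The calls for LIN52 and RBBP4 in CAMA-1 were kept in all 14 alternatives of each comparison.

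**Figure D1:**
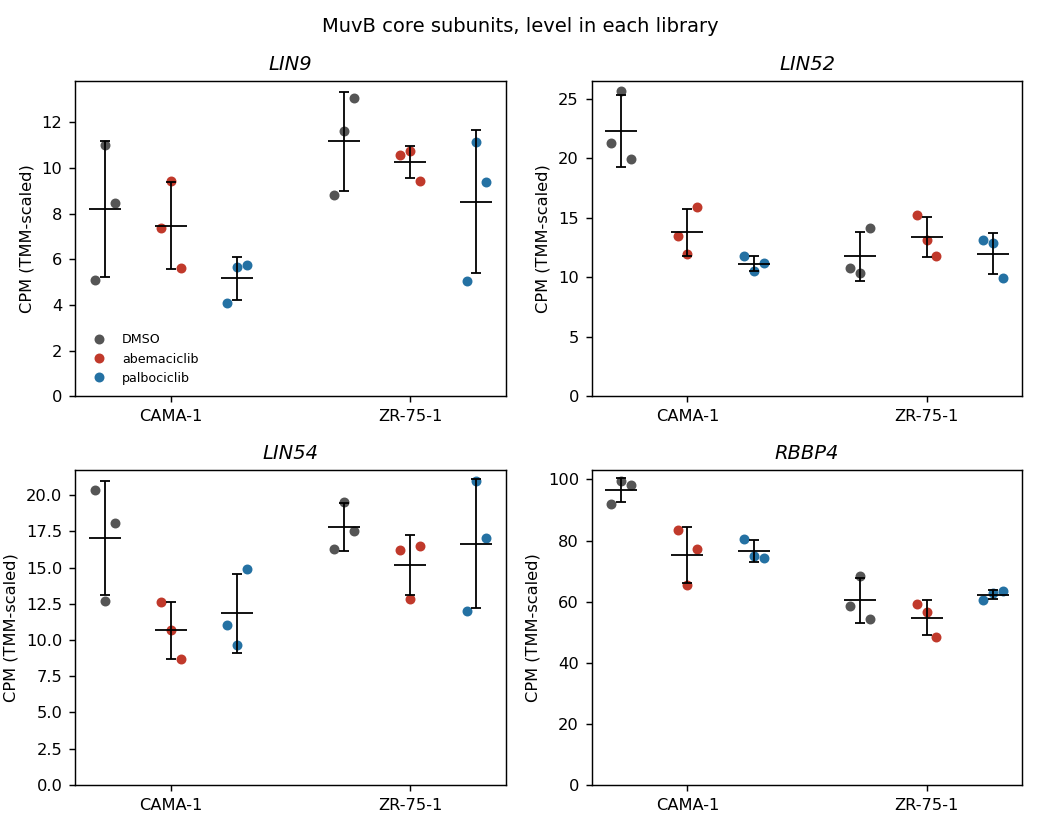
Levels of 4 MuvB core subunits in each library. Points are libraries, the vertical axis is TMM-scaled CPM from 0, and the horizontal mark and bars give the mean and SD of the 3 libraries of a group. In CAMA-1 the 6 treated libraries of LIN52 and of RBBP4 lie below the 3 DMSO libraries, while LIN9 overlaps throughout and the ZR-75-1 groups of LIN9, LIN52 and LIN54 overlap.

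LIN37, the remaining subunit and one that DREAM needs for repression, held 0 counts in 17 libraries and 5 counts in 1 abemaciclib library of CAMA-1. A count of 0 allows up to 0.723 to 1.30 CPM, depending on the library, which covers counting error only. In GENCODE release 44 (GRCh38) LIN37 occupies chr19:35748361-35754519 on the plus strand and lies wholly inside a protein-coding gene on the same strand that ends at the same base, ENSG00000188223 (start 35745678), and that gene held 0 counts as well. Of 493 protein-coding genes lying inside another protein-coding gene on the same strand, 64.5% held under 18 counts over all libraries, against 36.7% of the other 19418. These counts do not show whether LIN37 was expressed, and the part of the overlap in them was not tested.

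MYBL2 encodes B-Myb, the partner of the core in S phase and itself a gene that E2F and DREAM control. In CAMA-1 MYBL2 stood at 253, 269.6 and 224 CPM in the DMSO libraries, 66.2, 73.1 and 50.1 with abemaciclib and 84.2, 89.6 and 73.9 with palbociclib. Every treated library lay below every DMSO library by a wide margin, and all 3 abemaciclib libraries lay below the 3 palbociclib libraries. MYBL2 fell by 2.02 with abemaciclib (SE 0.11, adjusted p = 9.37e-20) and by 1.62 with palbociclib (SE 0.10, adjusted p = 3.04e-17), to 25.4 and 33.2% of the DMSO mean.

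In ZR-75-1 MYBL2 stood at 255, 268 and 275 CPM in the DMSO libraries, 75.0, 87.2 and 72.0 with abemaciclib and 218, 192 and 213 with palbociclib. The abemaciclib libraries were far below the rest, and the palbociclib libraries lay below the DMSO libraries but much closer to them. The log2 fold change was -1.77 ± 0.090 (SE, adjusted p = 6.32e-24) with abemaciclib and -0.36 ± 0.080 (SE, adjusted p = 0.000377) with palbociclib, to 29.4 and 78.1% of the DMSO mean. In the order of group means, ZR-75-1 DMSO (266 ± 10.1 CPM, SD, n = 3) and CAMA-1 DMSO (249 ± 22.8) overlapped, ZR-75-1 palbociclib (208 ± 14.1) stood clear of both sides, and CAMA-1 palbociclib (82.5 ± 7.98), ZR-75-1 abemaciclib (78.1 ± 8.07) and CAMA-1 abemaciclib (63.1 ± 11.8) overlapped each with the next.

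FOXM1 encodes the forkhead factor that joins MuvB in G2 and drives the genes of mitosis. In CAMA-1 it stood at 54.7, 58.4 and 64.6 CPM in the DMSO libraries, 8.97, 12.8 and 8.09 with abemaciclib and 10.3, 14.5 and 10.8 with palbociclib. The treated libraries were all below the DMSO libraries, and the inhibitors overlapped each other. FOXM1 showed the deepest fall of the members in each of the 4 comparisons with DMSO, here -2.64 ± 0.18 (SE, adjusted p = 7.25e-16) with abemaciclib and -2.35 ± 0.17 (SE, adjusted p = 5.03e-15) with palbociclib, to 16.8 and 20.0% of the DMSO mean.

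In ZR-75-1 FOXM1 stood at 138, 129 and 123 CPM in the DMSO libraries, 27.8, 22.5 and 25.6 with abemaciclib and 74.9, 80.8 and 77.2 with palbociclib, and the 3 groups did not overlap. The fall was -2.37 ± 0.12 (SE, adjusted p = 9.25e-24) with abemaciclib and -0.75 ± 0.10 (SE, adjusted p = 3.06e-08) with palbociclib, to 19.4 and 59.7% of the DMSO mean. The group means ran in the order ZR-75-1 DMSO (130.1 ± 7.27 CPM, SD, n = 3), ZR-75-1 palbociclib (77.6 ± 2.95), CAMA-1 DMSO (59.2 ± 4.97), ZR-75-1 abemaciclib (25.3 ± 2.65), CAMA-1 palbociclib (11.9 ± 2.26) and CAMA-1 abemaciclib (9.96 ± 2.52), and only the last pair overlapped. All 3 ZR-75-1 libraries with palbociclib lay above all 3 CAMA-1 DMSO libraries in FOXM1, a pair of groups that was not tested. The 8 falls of MYBL2 and FOXM1 against DMSO kept their call in all 14 alternatives tried for each.

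**Figure D2:**
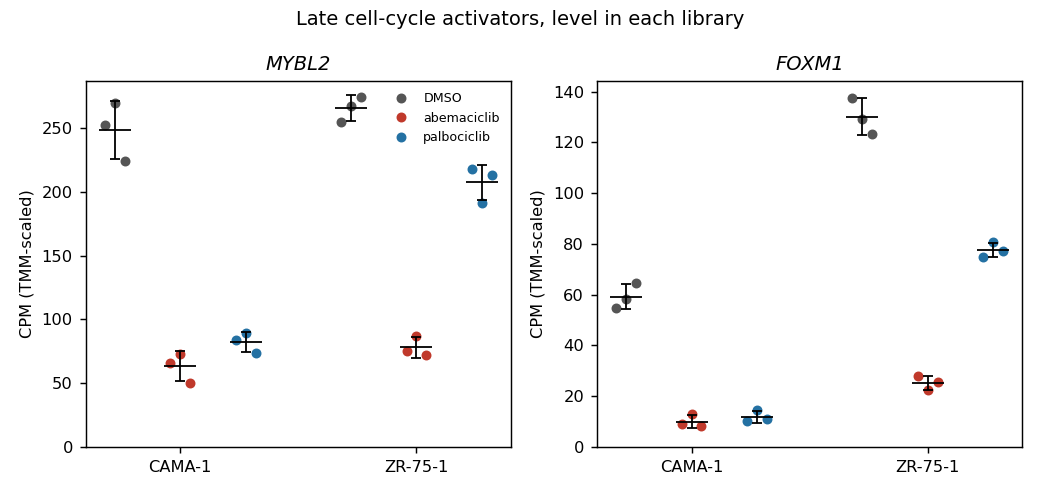
Levels of MYBL2 and FOXM1 in each library. Points are libraries, the vertical axis is TMM-scaled CPM from 0, and the horizontal mark and bars give the mean and SD of the 3 libraries of a group. In ZR-75-1 the palbociclib libraries (192 to 218 CPM of MYBL2, 74.9 to 80.8 of FOXM1) lie between the DMSO and the abemaciclib libraries, whereas in CAMA-1 the libraries of both inhibitors lie together near the bottom.

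The inhibitors were compared directly within each line, at the same dose and time. In CAMA-1, MYBL2 was lower with abemaciclib than with palbociclib by 0.40 (adjusted p = 0.0446, 95% interval -0.63 to -0.17), and it was the 1 member of 6 called, where 1.53% of the genes tested were called lower and 0.796% higher. That call was lost in DESeq2 and without abemaciclib replicate 1 or 3 or palbociclib replicate 1 or 2, with log2 fold changes from -0.51 to -0.26 and adjusted p up to 0.375 over all alternatives. FOXM1 differed by -0.29 (adjusted p = 0.650, interval -0.74 to 0.17) and was not called. In ZR-75-1, 2 of 6 members were lower with abemaciclib, against a background of 7.94% lower and 5.23% higher: MYBL2 by 1.41 (adjusted p = 7.87e-19) and FOXM1 by 1.62 (adjusted p = 2.17e-15). Of the 4 core subunits, 0 were called between the inhibitors in either line by edgeR, 0 by DESeq2, and 0 had an unadjusted p under 0.05. Their intervals reached 1.23 for LIN9, 0.76 for LIN52 and -0.64 for LIN54 in CAMA-1, while that of RBBP4 was narrower, -0.22 to 0.19 in CAMA-1 and -0.43 to 0.060 in ZR-75-1.

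Whether the lines responded differently was tested on all 18 libraries, with the response of CAMA-1 subtracted from the response of ZR-75-1, both on the log2 scale. For palbociclib 3 of 6 members were called higher, against 10.0% of 11987 genes higher and 10.3% lower. They were FOXM1 at 1.58 ± 0.19 (SE, adjusted p = 1.55e-09), MYBL2 at 1.23 ± 0.13 (SE, adjusted p = 2.34e-11) and LIN52 at 1.02 ± 0.32 (SE, adjusted p = 0.0171). FOXM1 and MYBL2 fell in both lines, by less in ZR-75-1, whereas LIN52 fell in CAMA-1 and was not called in ZR-75-1. RBBP4 gave 0.37 (adjusted p = 0.0811) and was not called, although it was called in the fits without mitochondrially encoded genes (0.42) and without the second ZR-75-1 DMSO library (0.51). For abemaciclib 1 of 6 was called higher, LIN52 at 0.87 ± 0.32 (SE, adjusted p = 0.0478), where 8.19% of all genes were called higher and 10.0% lower. The LIN52 call for abemaciclib lay close to the threshold and was lost in 9 of 19 alternatives, with the adjusted p reaching 0.115: with no filter on low counts, with a replicate block, and without CAMA-1 DMSO replicate 2, CAMA-1 abemaciclib replicate 1 or 2, ZR-75-1 DMSO replicate 1 or 2, or ZR-75-1 abemaciclib replicate 1 or 2. LIN9 and LIN54 were called for neither inhibitor. MYBL2 and FOXM1 did not pass the test for abemaciclib, with differences between the lines of 0.22 (interval -0.064 to 0.51) and 0.25 (interval -0.19 to 0.70).

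The gap between the inhibitors itself differed between the lines for MYBL2 and FOXM1. This comparison equals the abemaciclib difference between the lines less the palbociclib difference, so it is not independent of those results. Abemaciclib minus palbociclib was lower in ZR-75-1 than in CAMA-1 by 1.01 for MYBL2 (adjusted p = 1.55e-06) and by 1.32 for FOXM1 (adjusted p = 0.000357). These were 2 of the 6 members tested, with 1.77% of all genes called lower and 1.03% higher. Both calls, and those of MYBL2 and FOXM1 in the palbociclib comparison between lines, were kept in 19 of 19 alternatives.

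**Figure D3:**
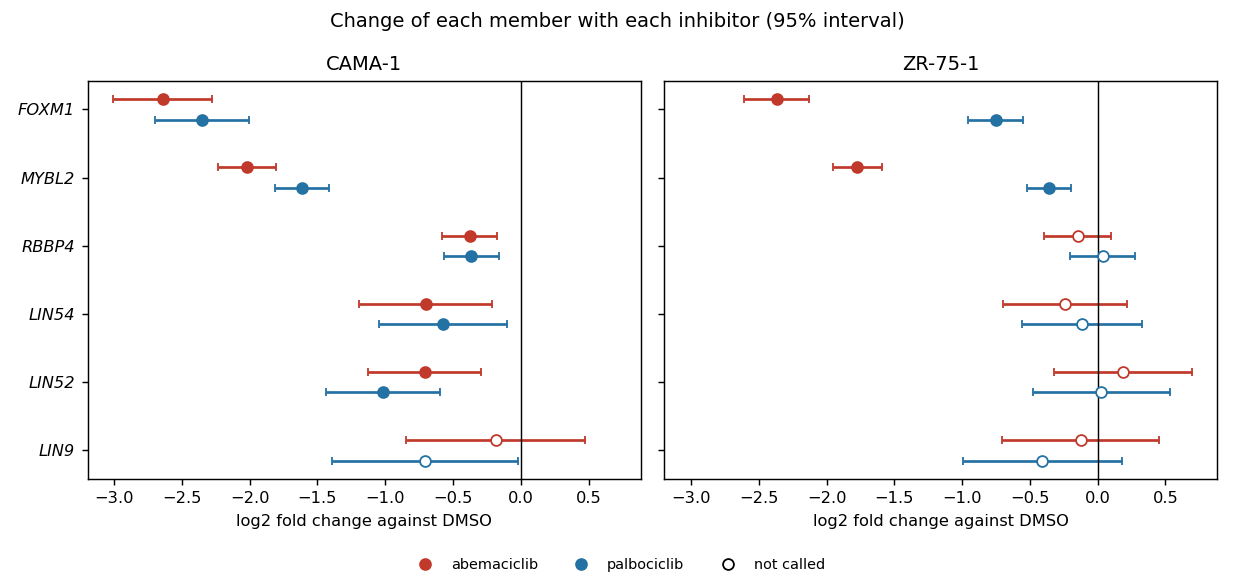
Log2 fold change of 6 members with each inhibitor against DMSO, by line. Points are edgeR estimates, bars their 95% intervals, filled points were called and open points were not. FOXM1 and MYBL2 lie furthest left except with palbociclib in ZR-75-1, where the open LIN9 point (-0.41) lies left of MYBL2. The palbociclib points of FOXM1 and MYBL2 in ZR-75-1 (-0.75 and -0.36) lie closest to 0 of the 4 for each gene, and LIN52, LIN54 and RBBP4 are filled in CAMA-1 and open in ZR-75-1.

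The untreated lines already differed in many genes. In DMSO, 2 of 6 members were lower and 1 was higher in ZR-75-1 than in CAMA-1, where 29.8% of all genes were lower and 31.5% higher. By this count the members did not stand out from all genes. LIN52 was lower by 0.92 (adjusted p = 0.000252) and RBBP4 by 0.67 (adjusted p = 2.65e-07). FOXM1 was higher by 1.13 (adjusted p = 1.63e-13). MYBL2 differed by 0.10 (interval -0.076 to 0.27), LIN54 by 0.057 and LIN9 by 0.44, and none of these passed the test. LIN52 and RBBP4, which fell in CAMA-1 with both inhibitors, had a higher DMSO level in that line. The falls and this line difference rest on the same CAMA-1 DMSO libraries, so they are not independent results.

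The DREAM partners are the pocket proteins p107 (RBL1) and p130 (RBL2), E2F4, E2F5, their DP partners TFDP1 and TFDP2, and the kinase DYRK1A. Of these 7, 3 were called lower and 1 higher with each inhibitor in CAMA-1. In ZR-75-1, 2 were lower with abemaciclib, and 2 were lower and 1 higher with palbociclib. Of all genes tested in CAMA-1, 20.1% were lower and 20.3% higher with abemaciclib, and 18.7% and 18.4% with palbociclib. The shares in ZR-75-1 were 18.3% lower and 17.9% higher with abemaciclib, and 13.4% and 14.5% with palbociclib. The counts were not tested against these shares. RBL1 fell under abemaciclib in both lines, at -1.94 (adjusted p = 1.67e-07) in CAMA-1 and -1.58 (adjusted p = 4.37e-05) in ZR-75-1. Under palbociclib it fell in CAMA-1 at -1.39 (adjusted p = 1.96e-05) and gave -0.69 (adjusted p = 0.0534) in ZR-75-1, which was not called. RBL2, the pocket protein typical of arrested cells, rose in CAMA-1 by 0.58 (adjusted p = 0.000481) and 0.39 (adjusted p = 0.0184), from 35.2 ± 5.15 CPM (SD, n = 3) in DMSO to 54.4 ± 3.43 CPM with abemaciclib and 47.6 ± 5.18 CPM with palbociclib. In ZR-75-1 RBL2 gave 0.30 (adjusted p = 0.270) and -0.12 (adjusted p = 0.738).

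TFDP1 fell in all 4 comparisons with DMSO, from -1.21 with abemaciclib in CAMA-1 to -0.41 with palbociclib in ZR-75-1 (adjusted p = 0.00426). Its paralogue TFDP2 was called in 1 comparison, at 0.61 (adjusted p = 0.0446) with palbociclib in ZR-75-1, where the groups overlapped. E2F4, the main E2F of DREAM, had log2 fold changes between -0.089 and 0.24 and E2F5 between -0.016 and 0.55, and neither was called in a comparison with DMSO. DYRK1A fell under both inhibitors in CAMA-1, at -0.36 (adjusted p = 0.0419) for abemaciclib and -0.38 (adjusted p = 0.0310) for palbociclib, and under palbociclib in ZR-75-1 at -0.51 (adjusted p = 0.0187).

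The kinases that act on the activators, with their cyclins, were also lower. CDK2 and cyclin A (CCNA2) phosphorylate B-Myb, and CDK1, cyclin B (CCNB1) and PLK1 act on FOXM1 and are also its targets. All 5 were called lower with each inhibitor in CAMA-1, and 4 of 5 with each inhibitor in ZR-75-1. Of all genes tested, 13.4 to 20.1% were called lower in these comparisons. CCNA2 fell most, with -4.20 in CAMA-1 and -4.64 in ZR-75-1 under abemaciclib, -2.84 and -1.50 respectively under palbociclib. Under abemaciclib CCNA2 held only 9 to 15 counts per library in CAMA-1 and 5 to 9 in ZR-75-1. CDK2 fell in CAMA-1, with -1.01 under abemaciclib and -0.82 under palbociclib, and was the kinase not called in ZR-75-1, at -0.20 (adjusted p = 0.193) and 0.072 (adjusted p = 0.692). The difference between the lines in CDK2 was called for both inhibitors, at 0.78 (adjusted p = 0.000449) for abemaciclib and 0.87 (adjusted p = 4.78e-05) for palbociclib. PLK1 fell throughout, with -2.62 in CAMA-1 and -4.17 in ZR-75-1 under abemaciclib, -2.28 and -1.11 respectively under palbociclib. Its gap between the inhibitors differed between the lines by -2.72 (adjusted p = 1.82e-14). For CDK1 the log2 fold changes were -2.69 in CAMA-1 and -2.75 in ZR-75-1 under abemaciclib, -2.14 and -0.90 respectively under palbociclib.

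The paralogues of the members did not follow a single direction. RBBP7, the close relative of RBBP4, fell in 3 of the 4 comparisons, with -0.90 in CAMA-1 and -0.32 in ZR-75-1 under abemaciclib, -0.86 and -0.12 respectively under palbociclib, the last not called (adjusted p = 0.354). MYB and MYBL1, the other MYB family genes, rose in CAMA-1, MYB by 0.45 (adjusted p = 0.0419) and 0.57 (adjusted p = 0.00925) and MYBL1 by 0.64 (adjusted p = 9.25e-05) and 0.75 (adjusted p = 5.74e-06). MYB, an oestrogen-regulated gene in luminal cells, also rose with palbociclib in ZR-75-1 by 0.39 (adjusted p = 0.00635). In CAMA-1, then, MYBL2 fell to 25.4% of its DMSO mean with abemaciclib while MYBL1 went from 47.9 ± 4.91 CPM to 74.9 ± 18.5 CPM (SD, n = 3).

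Genes that B-Myb, FOXM1 and MuvB are known to regulate were followed as a list of 46 late cell cycle genes (mitotic kinases, cyclins, kinesins and kinetochore parts), of which 45 passed the filter and NUSAP1 did not. A list of 26 early genes (G1/S and replication genes, typical E2F targets) was set beside it. Of the late genes, abemaciclib lowered 44 in CAMA-1 and 45 in ZR-75-1, and palbociclib lowered 43 and 42. Under abemaciclib the median log2 fold change was -2.01 in CAMA-1 and -2.60 in ZR-75-1, and under palbociclib -1.67 and -0.99, where the medians over all genes tested lay between -0.0079 and 0.010. Of the early genes, 25 of 26 were lower in each of these comparisons except palbociclib in ZR-75-1, where 11 were. Over all genes tested, 13.4% were lower with palbociclib in ZR-75-1 and 18.3 to 20.1% in the other comparisons. The early medians under abemaciclib were -1.84 in CAMA-1 and -1.39 in ZR-75-1, and under palbociclib -1.20 and -0.42.

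The late genes with the lowest and highest values were PIMREG (-3.86) and CKS2 (-0.53) with abemaciclib in CAMA-1, and PIMREG (-2.95) and TTK (-0.48, not called) with palbociclib. In ZR-75-1 they were MKI67, the proliferation marker Ki-67 (-5.88), and CKS1B (-0.37) with abemaciclib, and KIF20A, a kinesin of cytokinesis (-1.79), and ECT2 (-0.23, not called) with palbociclib. The PIMREG values rest on few counts in CAMA-1, 1 to 6 per library with abemaciclib and 1 to 12 with palbociclib. Both ranges reach below the floor of 3 counts. BIRC5 (survivin) fell in all 4 comparisons, with -2.75 in CAMA-1 and -2.99 in ZR-75-1 under abemaciclib, -2.18 and -0.87 respectively under palbociclib. AURKA, a spindle kinase, gave -1.75 in CAMA-1 and -2.07 in ZR-75-1 under abemaciclib, -1.56 and -0.66 respectively under palbociclib. For CDC20, the activator of the anaphase-promoting complex, the values were -1.99 in CAMA-1 and -1.45 in ZR-75-1 under abemaciclib, -1.87 and -0.99 respectively under palbociclib. CCNB1 had -1.71 in CAMA-1 and -2.01 in ZR-75-1 under abemaciclib, -1.40 and -0.84 respectively under palbociclib.

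Among the early genes RRM2, the ribonucleotide reductase subunit, was the lowest with either inhibitor in CAMA-1 (-4.24 and -2.60) and with abemaciclib in ZR-75-1 (-6.06), and fell by 0.98 with palbociclib there. With palbociclib in ZR-75-1 the lowest early gene was the cyclin E gene CCNE2 (-1.47, adjusted p = 0.000464) and the highest its paralogue CCNE1 (0.38, adjusted p = 0.319). The highest with either inhibitor in CAMA-1 was also CCNE1 (-0.48 and -0.49, not called), and CDC6 with abemaciclib in ZR-75-1 (-0.26, not called). MCM2, part of the replicative helicase, fell in 3 of the 4 comparisons, with -2.27 in CAMA-1 and -0.52 in ZR-75-1 under abemaciclib, -1.47 and 0.021 respectively under palbociclib, the last not called (adjusted p = 0.917). E2F1, itself an E2F target, likewise fell in 3, with -1.62 in CAMA-1 and -1.03 in ZR-75-1 under abemaciclib, -0.92 and -0.19 respectively under palbociclib, the last again not called (adjusted p = 0.304).

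Between the inhibitors, 9 of 45 late and 11 of 26 early genes in CAMA-1 were lower with abemaciclib, as were 39 late and 21 early genes in ZR-75-1. Over all genes tested, 1.53% were lower in CAMA-1 and 7.94% in ZR-75-1. The early count in CAMA-1 was 7 without abemaciclib replicate 1 or without palbociclib replicate 1. Between the lines, 27 late and 16 early genes were called higher in the palbociclib response of ZR-75-1 minus that of CAMA-1, with median differences over the lists of 0.67 and 0.86. Of all genes tested, 10.0% were called higher in that comparison and 10.3% lower. For abemaciclib 17 late genes were lower and 3 higher in ZR-75-1 relative to CAMA-1, and 4 early genes were lower and 7 higher. The shares over all genes were 10.0% lower and 8.19% higher, and the list counts were not tested against them. The early count of 4 was 2 without CAMA-1 abemaciclib replicate 3 or ZR-75-1 abemaciclib replicate 2. The median was -0.45 in the late list and 0.32 in the early list, beside -0.033 over all genes. MKI67 was the lowest late gene in that comparison (-2.64, adjusted p = 8.49e-17) and MCM2 the highest early gene (1.72, adjusted p = 9.15e-13).

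**Figure D4:**
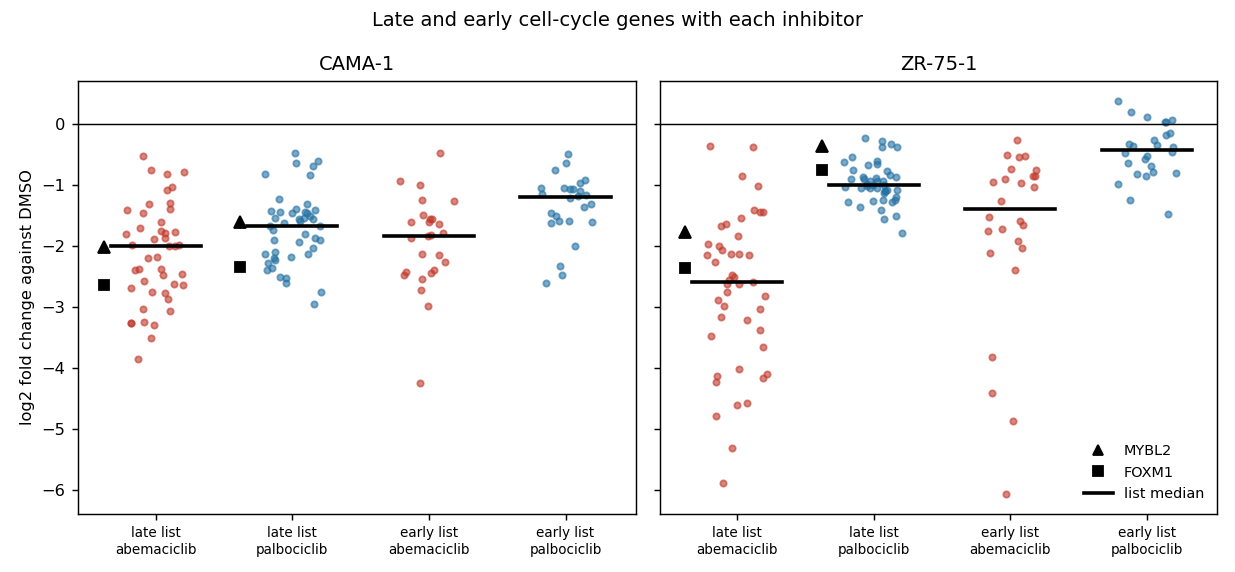
Log2 fold change against DMSO of the 45 late and 26 early cell cycle genes tested, by line and inhibitor. Points are genes, bars list medians, and the triangle and square mark MYBL2 and FOXM1. In ZR-75-1 the late and early medians with palbociclib (-0.99 and -0.42) lie nearer 0 than with abemaciclib (-2.60 and -1.39), and MYBL2 (-0.36) lies above the late median there.

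The promoter letters were also counted in the lists. The lists were drawn up from known regulation and the letters chosen after the sequences had been read, so a difference between them is partly built in. Of 38 late genes with a promoter entry, 27 (71.1%) held the CHR letters, 12 (31.6%) the E2F letters and 33 (86.8%) the CCAAT box. Among 22 early genes with an entry, 1 (4.55%) held the CHR letters, 15 (68.2%) the E2F letters and 15 (68.2%) the CCAAT box. Over all genes with an entry the shares were 18.2, 18.0 and 39.7%. The E2F letters and the CCAAT box were thus above the share of all genes in both lists. MYBL2 carries the E2F letters alone, without the CCAAT box that was as common as them in the early list, whereas the LIN54 window holds both the CHR and the E2F letters within 30 bases of each other.

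The members tested were also compared with every other gene over the 18 libraries, by Pearson's r of log2 CPM (prior count 2) after subtraction of the mean of each line. These r values describe shared patterns over libraries that share treatment and line, and carry no test. MYBL2 and FOXM1 were among each other's 3 closest genes, at r = 0.979 over 18 libraries and 11986 genes compared. The other closest genes were RPS29 (0.981) and MT2A (0.980) for MYBL2, and NCAPG (0.984) and RRM1 (0.979) for FOXM1. For RBBP4 they were SHCBP1 (0.881), ADRM1 (0.871) and MIR924HG (0.865), for LIN54 UBA2 (0.878), RPS27A (0.831) and FANCL (0.826), for LIN52 COPRS (0.863), EPB41L2 (0.856) and TMEM161B-DT (0.849), and for LIN9 DCLRE1B (0.842), GABBR1 (0.779) and LTV1 (0.773). Within the members, r with MYBL2 was 0.713 for RBBP4, 0.558 for LIN54, 0.442 for LIN52 and 0.169 for LIN9, the lowest belonging to the gene with the fewest counts.

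Several members overlap other genes, which matters because the sources used here do not say whether reads were counted by strand. The 3′ end of FOXM1 (chr12:2857680-2877174, minus strand) lies under ITFG2 on the opposite strand, and its 5′ end overlaps RHNO1, a divergent gene of DNA damage signalling. RHNO1 also fell in 3 of the 4 comparisons, with -1.17 in CAMA-1 and -0.52 in ZR-75-1 under abemaciclib, -0.93 and -0.27 respectively under palbociclib, the last not called (adjusted p = 0.0547), and each value was nearer 0 than that of FOXM1. ITFG2 passed the filter in ZR-75-1 and fell there at -1.29 (adjusted p = 0.000299) with abemaciclib and -1.02 (adjusted p = 0.00324) with palbociclib, on 13 to 70 counts per library against 65 to 423 for FOXM1. The ITFG2 value was nearer 0 than that of FOXM1 with abemaciclib (-2.37) but further from 0 with palbociclib (-0.75). The part of shared reads in these values was not tested.

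The 3′ ends of RBBP4 (chr1:32651142-32686211, plus strand) and LIN54 (chr4:82909973-83012926, minus strand) are overlapped by SYNC and THAP9 on the opposite strand. SYNC held 304 counts over all libraries against 4198 for RBBP4, and THAP9 53 against 862 for LIN54. The 7 pseudogenes of RBBP4 in the table held 2 counts in all. MYBL2 (chr20:43667019-43716495, plus strand) and LIN9 (chr1:226231149-226309869, minus strand) overlap no other annotated gene, and LIN52 (chr14:74084956-74201493, plus strand) contains small RNA and pseudogene entries with 5 counts in all.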

How the data were processed

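RNA was measured with a Lexogen QuantSeq 3′ messenger RNA kit in 18 libraries. On the strand of the kit, the labels differ from the study's methods. The authors deposited whole-number counts of reads for each gene. Reads were trimmed with BBDuk, aligned to hg38 with STAR 2.7.5b and counted with featureCounts 2.0.1 on GENCODE release 35, the tool versions being those of the submitters' processing notes. The use of strand, multiple alignments and molecular identifiers is not given in the sources used here, so reads of overlapping genes may be mixed, and the floor of 3 counts covers counting error only. Such 3′ counts depend little on gene length. The line, treatment and replicate in its name gave each of the 18 columns its sample.

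Each line was fitted alone (9 libraries) in edgeR 4.0.16 (R 4.3.3) with filterByExpr, TMM scaling and the quasi-likelihood F test, with Benjamini-Hochberg adjustment of p over the 11053 (CAMA-1) or 11017 (ZR-75-1) genes tested. Comparisons between lines used 1 fit over 18 libraries and 11987 genes. The biological coefficient of variation was 8.12, 8.30 and 8.26%. The study used DESeq2, run here (version 1.42.0) as an alternative. Other alternatives changed the scaling, the filter on low counts, the mitochondrial genes, the libraries in the fit, the replicate block and each library left out.

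The members and lists were chosen with earlier results of these data known. By the rule on genes named, the text gives the 7 members, all DREAM partners, kinases and paralogues, 8 chosen late and early genes, the lowest and highest gene of those lists, the 3 genes closest to each member by r where the highest r is over 0.8, and genes overlapping a member. The list counts were recomputed under the alternatives by a choice made after the data had been seen. Coordinates are from GENCODE release 44 on GRCh38 and promoter sequences from RefSeq.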

Additional observations from a re-analysis of the deposited data

Results flagged for a closer look

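The responses of 3 members differed between the lines by a test of the difference itself, in edgeR's quasi-likelihood fit over all 18 libraries. For palbociclib the response of ZR-75-1 less the response of CAMA-1 (log2 fold changes) was 1.58 for FOXM1, 1.23 for MYBL2 and 1.02 for LIN52. Of all genes, 10.0% were called higher and 10.3% lower in that comparison. For abemaciclib the difference was 0.87 for LIN52, a call that was lost in 9 of 19 alternatives. There 8.19% of all genes were called higher and 10.0% lower. The difference between abemaciclib and palbociclib, again ZR-75-1 minus CAMA-1, was -1.32 for FOXM1 and -1.01 for MYBL2. In it 1.77% of all genes were called lower and 1.03% higher. It equals the abemaciclib line difference less the palbociclib line difference, so it is not an independent result.

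LIN37, which entered no comparison, held 5 counts in 1 CAMA-1 library with abemaciclib, above the 3 counts taken as a floor, and 0 counts in the other 17 libraries.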

How the results depend on the processing

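The 1 member called between abemaciclib and palbociclib in CAMA-1 (MYBL2) became 0 in DESeq2 and ranged from 0 to 1 over the fits that left out a library. The 1 member whose abemaciclib response differed between the lines (LIN52) became 0 with no filter on low counts and 0 with a replicate block, and ranged from 0 to 1 with a library left out. In the same fits the early genes lower with abemaciclib than palbociclib in CAMA-1 ranged from 7 to 10, and those with a lower abemaciclib response in ZR-75-1 from 2 to 4. The other counts of members and of late and early genes stayed within 1.5 times under every alternative run.

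With a library left out, some uncalled log2 fold changes crossed 0: LIN9 with abemaciclib in CAMA-1 (-0.43 to 0.057), LIN52 (-0.056 to 0.17), LIN54 (-0.31 to 0.078) and RBBP4 (-0.039 to 0.14) with palbociclib in ZR-75-1, LIN54 (-0.28 to 0.055) and RBBP4 (-0.090 to 0.061) between inhibitors in CAMA-1, LIN54 between inhibitors in ZR-75-1 (-0.32 to 0.071), and, between DMSO lines, LIN54 (-0.13 to 0.14) and MYBL2 (-0.012 to 0.13).

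No pairing by replicate number was seen. The deviations of same-numbered libraries correlated from -0.080 to 0.025 in CAMA-1 and from -0.027 to 0.0044 in ZR-75-1, none over 0.1. Counting error lowers such correlations, so a shared effect on some genes could be missed. With a replicate block, LIN54 with palbociclib in CAMA-1 (-0.56) and LIN52 in the abemaciclib comparison between lines (0.87) lost their calls and no other member did. On unscaled totals 32 of 36 group levels moved by less than 1 SD, and the other 4 lay within the overall range of -2.52 to 9.77%. The CAMA-1 DMSO levels of the members tested all rose, RBBP4 from 96.6 to 105.8 CPM. With abemaciclib in that line RBBP4 went from 75.3 to 74.0 CPM. The percentages of the DMSO mean given for CAMA-1 would thus be lower on unscaled totals. Depth limits LIN9, LIN52 and LIN54 most, with 16 to 87 counts per library.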
